A study of Homo sapiens with 68 samples.

Results

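The comparison described here set 2 hnRNPA1 libraries made without ultraviolet crosslinking and without gel purification (noUV_noPAGE_hnRNPA1) against 2 hnRNPA1 libraries made with crosslinking and without the gel (hnRNPA1_50k_noPAGE). These 4 libraries, chosen by their sample titles, belong to a series of 68 samples that also varied the antibody, the RNase, the cell number and the gel step. All came from HEK293T cells, an established human embryonic kidney line, with 50000 cells and 0.005 U of RNase per the labels. TLC-CLIP is a crosslinking and immunoprecipitation method: a protein is pulled down with an antibody from RNase-treated lysate, and the RNA fragments that come with it are sequenced. In the series, the libraries without crosslinking serve to profile RNA fragments that come down without a covalent bond to the protein. The missing ultraviolet step is known from the titles and the series' design text, since the treatment text attached to every sample describes crosslinking.

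For comparison, other libraries of the same cells, cell number and RNase amount were read, each in duplicate. They were crosslinked hnRNPA1 without gel with an added RecJ nuclease step (hnRNPA1_50k_noPAGE_RecJ), hnRNPA1 with gel, crosslinked (hnRNPA1_50k_lowRNase) and not crosslinked (noUV_hnRNPA1), and the libraries without gel of 3 other antibodies, against hnRNPc, hnRNPI and RBFOX2, with and without crosslinking. The labels do not say whether duplicates came from separate cultures, so a spread or p-value here measures the spread between libraries, which may be technical. Whether the crosslinked and uncrosslinked libraries were prepared together is not given, so preparation and crosslinking cannot be told apart.

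hnRNPA1 is an abundant, mainly nuclear RNA-binding protein that shuttles to the cytoplasm. It binds nascent transcripts, is known for its part in splice site choice, in the processing of some microRNA precursors and in nuclear export, and prefers short motifs around UAG. Ultraviolet light joins protein and RNA at sites of direct contact, which lets CLIP washes be harsh. RNA that comes down without it can be held by the protein itself, by partner proteins, by the beads or by the antibody, and these libraries do not separate those sources.

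Each library is a list of peaks on the hg19 build, each with its strand, a p-value and a name. The name holds a gene identifier and a number that is taken as the reads of the peak, here called listed reads. Omitting crosslinking left fewer peaks in almost as many genes. The 2 libraries without crosslinking listed 180477 and 196278 peaks, against 499537 and 523402 with crosslinking. The mean fell from 511470 ± 16875 to 188378 ± 11173 (SD, n = 2 each), a log2 difference of -1.44. The 2 groups did not overlap in peak number. They named 14076 and 14516 gene identifiers without crosslinking and 15047 and 15104 with it. Listed reads summed to 5518303 and 6516131 without crosslinking and to 11183864 and 12045381 with it. The total depth of the libraries is unknown, so a site or gene missing from a list may have had reads that did not make a peak. With 2 libraries against 2, an exact permutation test cannot go below p = 0.333 two-sided, so values per library are given without a test.

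Peaks were slightly wider without crosslinking, with medians of 65 and 64 nt against 62 and 61 nt. The median peak held 9 reads in both libraries without crosslinking and 11 in both with it. Among peaks with a p-value below 1e-05, the order of the widths was reversed, at 73 and 73 nt without crosslinking against 80 and 78 nt with it.

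**Figure D1:**
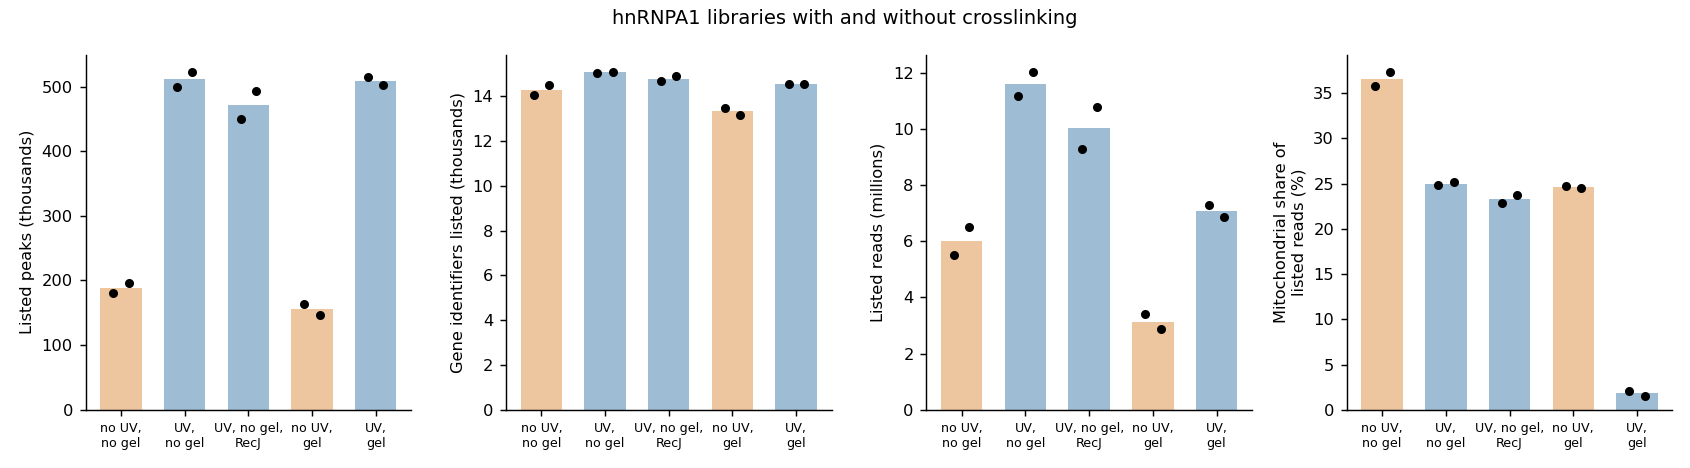
Peaks, gene identifiers, listed reads and the mitochondrial share of listed reads in hnRNPA1 libraries; points are the 2 libraries of a group and bars their mean, orange without and blue with crosslinking. Without gel, the libraries without crosslinking sit at 180477 and 196278 peaks, below the crosslinked libraries, and at 35.8% and 37.4% mitochondrial listed reads, above them.

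Most genes stayed on the list. Of 14210 identifiers listed in both crosslinked libraries, 12577 (88.5%) were listed in both libraries without crosslinking, 740 (5.21%) in 1 of them and 893 (6.28%) in neither. The lost genes had few peaks to begin with: their median was 1.5 crosslinked peaks per library, against 19 for the genes listed in all 4 libraries. Of genes with a mean of 1 to below 2 crosslinked peaks, 45.5% were listed in both libraries without crosslinking. This share was 69.3% from 2 to below 5 peaks, 90.8% from 5 to below 10, 98.7% from 10 to below 20 and 99.8% from 20 to below 50. All 2939 genes with 50 or more peaks were listed in both.

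A lost gene with many peaks was the exception, with 68 of the 893 having a mean of 5 or more. In hnRNPA1 libraries outside the comparison, 68.8% of the lost genes were listed in both RecJ libraries, 62.6% in both crosslinked libraries with gel and 4.59% in both libraries with gel and without crosslinking. Over all 14210 crosslinked genes these shares were 94.6%, 92.3% and 83.3%, so the lost genes were listed less often in each of these groups. Conversely, 409 identifiers were listed in both libraries without crosslinking and in neither crosslinked one. They had a median of 1 peak, 38.9% of them were listed in both gel libraries without crosslinking, and 4.4% in both RecJ libraries. Over all 13424 identifiers listed in both libraries without crosslinking, these shares were 89.5% and 92.4%. The gained identifiers were thus listed less often in either group. The count of lost genes depended on the listing rule: it was 1858 when 1 library of a group was enough and 157 when 3 peaks in both were required. It was 1375 and 1376 with the crosslinked replicate 1 or 2 left out. The count of gained identifiers was 853 and 641 with the uncrosslinked replicate 1 or 2 left out, and 654 without the crosslinked replicate 2.

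The share of listed reads per gene shifted widely. Listed reads of a gene were expressed per 1000000 listed reads of the library (rpm). Among 10618 genes with a mean of at least 5 rpm, 2505 (23.6%) were higher and 4725 (44.5%) lower without crosslinking (limma on log2(rpm + 1), Benjamini-Hochberg adjusted p below 0.05). For 8959 of the 10618, the values of the 2 groups did not overlap. The median log2 difference over all tested genes was -0.35 and single values should be read against this shift. The direction of the calls moved with the scaling. Of the called genes, 34.6% were higher with this scaling, 46.2% with libraries centred on their median, 46.4% with totals without the mitochondrial chromosome, 46.1% with 1 read number per run of touching peaks, and 62.0% in a fit of peak numbers per 1000000 peaks. In the fit as described, in the centred fit and in the peak number fit alike, 2003 genes were called higher and 1844 lower.

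**Figure D2:**
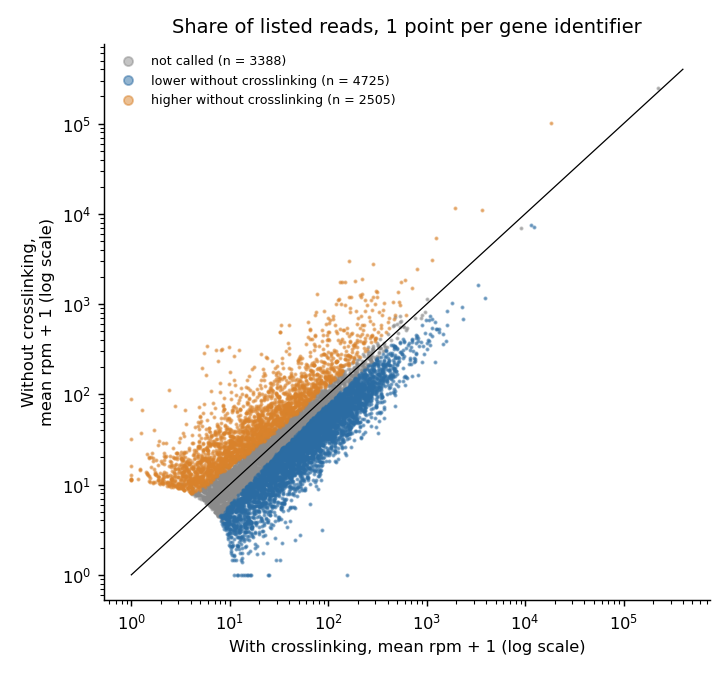
Mean rpm + 1 of 10618 gene identifiers with crosslinking (x axis) and without it (y axis), both on log scales, with the diagonal of equal share. Orange points are the 2505 genes called higher without crosslinking, blue points the 4725 called lower, and grey points were not called.

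Mitochondrial RNA took more of the listed reads without crosslinking. Its share was 35.8% and 37.4% without crosslinking and 24.8% and 25.2% with it. The groups did not overlap. In the RecJ libraries it was 22.9% and 23.8%. With gel it was 24.7% and 24.5% without crosslinking and 2.06% and 1.56% with it. Mitochondria have their own small genome, transcribed from both strands into long precursors that are cut into 2 ribosomal RNAs, transfer RNAs and messenger RNAs of respiratory chain subunits. Touching peaks repeat reads, so these shares are of listed reads and not of molecules.

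Of 29 identifiers on the mitochondrial chromosome, 22 passed the filter on low values. Of these, 13 were higher and 1 lower without crosslinking, beside 23.6% higher and 44.5% lower of all tested genes. The median log2 difference of the 22 was 0.97, beside -0.35 for all genes. With centred libraries 16 were higher and 0 lower, beside 3154 higher and 3669 lower of all 10618 tested genes. The filter kept identifiers that were abundant in at least 1 group, so the 22 are not all mitochondrial members.

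The small ribosomal RNA carried most of the gain. Its stretch, chrM:651-1543 on the plus strand, is the region that textbook maps give to the RNA of the small mitochondrial ribosomal subunit. It held 114593 and 86149 rpm without crosslinking and 18841 and 18112 with it. Both uncrosslinked libraries were far above both crosslinked ones, by a log2 difference of 2.43 (SE 0.31, limma adjusted p = 0.000234), or 5.43-fold between the means. Without the crosslinked replicate 2 it was 2.40 (adjusted p = 0.0695) and no longer passed. With gel, the difference was 5.74 (SE 0.09, adjusted p = 4.78e-08).

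The neighbouring stretch of the large subunit RNA, chrM:1673-3203, behaved differently. It held 228121 and 268065 rpm without crosslinking and 222202 and 226179 with it. Here the log2 difference was 0.14 (SE 0.56, limma adjusted p = 0.835), and the difference did not pass the test without gel. It did pass with 1 read number per run of touching peaks (1.05, adjusted p = 2.26e-05) and in peak numbers (0.84, adjusted p = 0.00177), so the result rests on how touching peaks are counted. With gel, it was 3.06 (SE 0.15, adjusted p = 3.06e-06), from 17987 and 12969 with crosslinking to 122804 and 131164 without it.

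Within the large subunit stretch, the listed positions differed between the groups. From chrM:2061 to chrM:2158, the longest stretch listed in both crosslinked and neither uncrosslinked library, the crosslinked libraries listed 11 and 15 peaks, the highest with 51679 and 54721 reads, and the 2 libraries without crosslinking listed 0. The RecJ libraries listed 11 and 14 peaks there, and with gel the order was the reverse: the libraries without crosslinking listed 1 peak each, with 13434 and 11482 reads, and the crosslinked ones 0. From chrM:2403 to chrM:2458 the reverse held. The libraries without crosslinking listed 4 and 5 peaks, the highest with 36245 and 33622 reads, and the crosslinked and RecJ libraries listed 0. With gel, the libraries without crosslinking each listed 1 peak there, with 33009 and 25013 reads, and the crosslinked ones 0 and 1, with 1564 reads. In the small subunit stretch, chrM:946-979 held 8204 and 9347 reads with crosslinking and no peak without it, but with gel it held 13356 and 9416 reads without crosslinking and 814 and 749 with it. The smallest listed peaks of the small RNA had 17440 and 14528 reads without crosslinking, above that site. An unlisted position in the large RNA can still have had many reads, since the smallest read number listed anywhere in it was 20651 and 24645 without crosslinking and 24314 and 26881 with it.

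**Figure D3:**
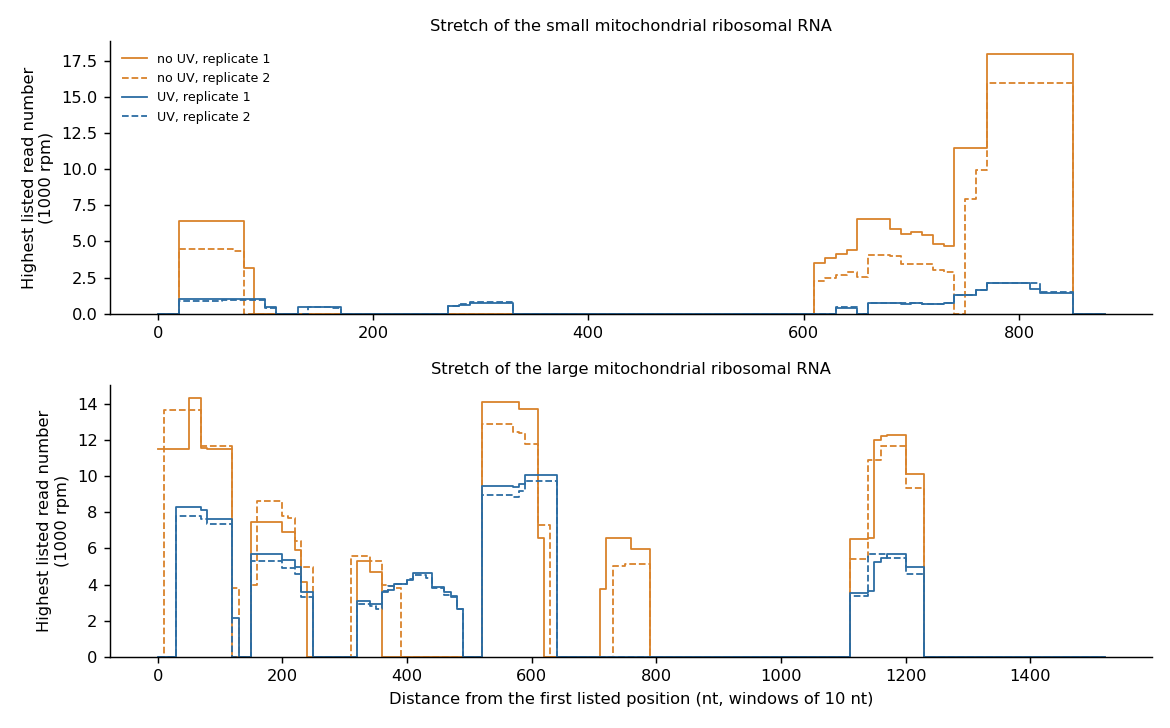
Highest listed read number per window of 10 nt, in 1000 rpm, along the stretches of the small (top) and large (bottom) mitochondrial ribosomal RNA, by distance from the first listed position. Orange lines are the 2 libraries without and blue lines the 2 with crosslinking, and a value of 0 means that no peak was listed. Near the 3' end of the small RNA both orange lines are far above the blue ones, while in the large RNA 1 peak region is blue alone and another orange alone.

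Short mitochondrial identifiers, of the size of transfer RNAs, rose most by their median log2 difference, 3.02. Of 14 with an extent of up to 75 nt, 7 passed the filter and 6 of these were higher without crosslinking, by log2 differences of 1.06 to 3.37, and 0 were lower. Among all 136 tested genes of up to 300 nt, mitochondrial ones included, 69.9% were higher and 13.2% lower, with a median of 2.06. The identifier at chrM:1603-1672, between both ribosomal RNA stretches, held 859.7 and 652.5 rpm without crosslinking and 63.04 and 80.94 with it. Its log2 difference was 3.37 (SE 0.17, limma adjusted p = 8.46e-06). The identifier at chrM:580-649, just before the small ribosomal RNA, rose by 3.02 (SE 0.18, adjusted p = 1.15e-05), from 34.96 and 43.67 to 382.4 and 276.1. Peaks at these borders may share reads with the ribosomal RNA stretches next to them.

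The 13 longer identifiers outside both ribosomal RNAs moved less, with a median log2 difference of 0.53. Of these, 6 were higher, by 0.86 to 1.75, and 1 was lower, beside 23.6% higher and 44.5% lower of all tested genes. Between 300 and 3000 nt, 59.0% of all tested genes were higher. The largest rise among the 13 was at chrM:6019-7305, with 1122 and 881.8 rpm without crosslinking and 300.3 and 289.3 with it (log2 difference 1.75, SE 0.14, limma adjusted p = 2.67e-05). The fall was at chrM:4701-5487, with 393.4 and 285.8 against 430.9 and 500.4 (log2 difference -0.47, SE 0.17, adjusted p = 0.0331). It was not called lower with centred libraries. On the minus strand, chrM:14258-14674 rose by 1.52 (SE 0.28, limma adjusted p = 0.00152), from 3585 and 3775 to 7676 and 14590, with a wide gap between both uncrosslinked libraries.

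The change in share of listed reads went with the length of the gene, except in the longest class. The extent of a gene was taken as the stretch from its first to its last listed peak over the 18 libraries outside the comparison. Of 136 tested genes of up to 300 nt, 69.9% were higher and 13.2% lower without crosslinking, beside 23.6% and 44.5% of all tested genes. Between 300 and 3000 nt, 59.0% of 295 genes were higher, and between 3000 and 10000 nt, 42.5% of 1239. Between 100000 and 300000 nt, 13.1% of 1881 genes were higher and 60.7% lower. The median log2 difference fell from 2.06 in the shortest class to -0.66 between 100000 and 300000 nt, and was -0.57 above 300000 nt, where 18.2% of 478 genes were higher and 57.1% lower. Up to 300000 nt it fell from 2.32 to -0.40 with centred libraries and from 1.55 to -0.22 in the fit of peak numbers, so the order of these classes did not hang on the scaling. Extents were set by listed peaks and the shortest class holds mitochondrial identifiers as well. The 136 genes are those that passed the filter on low values, many of them through the group where they were high. Of the 435 genes of up to 300 nt listed in both crosslinked libraries, 41.6% were lost from the lists without crosslinking and 45.1% stayed, against 1.12% lost between 100000 and 300000 nt.

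The ratio of peak numbers fell through all classes. Genes of up to 300 nt had 738 and 884 peaks without crosslinking against 825 and 832 with it, a ratio of 0.979. Genes of 30000 to 100000 nt had 60033 and 63781 peaks against 157911 and 165139, a ratio of 0.383. Above 300000 nt the ratio was 0.296. In the gel libraries, which share no sample with these, the median log2 difference fell from 3.26 in the shortest class to -0.86 in the longest. The gel libraries are among those that set the extents, so these classes are not independent of their own peaks.

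**Figure D4:**
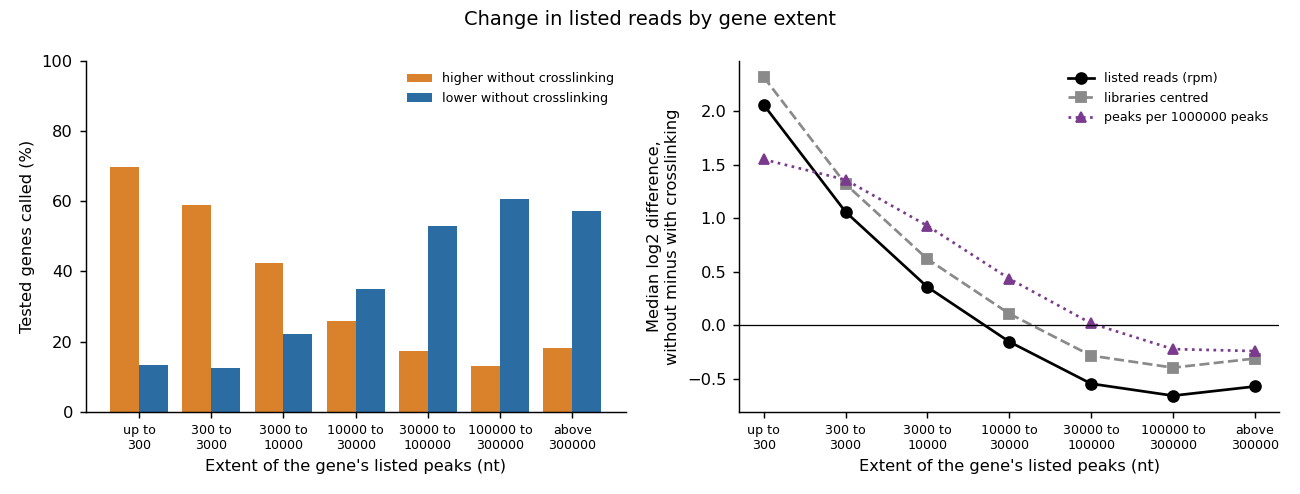
Left, percent of tested genes called higher (orange) or lower (blue) without crosslinking by the extent of their listed peaks; right, the median log2 difference in each class under 3 scalings. The share called higher falls from 69.9% of genes up to 300 nt to 13.1% between 100000 and 300000 nt, and under each scaling the median falls from the shortest class to that of 100000 to 300000 nt.

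The 10 largest rises among genes with a mean of at least 50 rpm and no overlap between groups (817 such genes were called higher) were mostly at identifiers of short extent. ENSG00000200354.1, at chr20:37062570-37062642 on the minus strand, held 334.7 and 345.0 rpm without crosslinking and 3.755 and 5.894 with it. Its log2 difference was 5.90 (SE 0.20, limma adjusted p = 2.4e-06); with 1 read number per run of touching peaks it was 4.5. ENSG00000201416.1, at chr20:37053908-37053979 on the same strand, held 222.7 and 349.6 against 5.275 and 3.653, a log2 difference of 5.70 (SE 0.25, adjusted p = 6.77e-06). The files do not pair identifiers with names, and no annotation of this build was used, so neither is named and the remaining genes are given by position.

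Chromosome 20 held 5 of these 10 identifiers close together on the minus strand. At chr20:37056007-37056087 a pair of identifiers covers nearly the same bases, and their reads cannot be told apart. The first held 232.5 and 388.3 rpm without crosslinking and 4.739 and 9.713 with it. Another, at chr20:37053905-37053979, overlaps ENSG00000201416.1. On chromosome 3, chr3:39452546-39452649 held 326.2 and 289.1 against 6.348 and 6.06 (log2 difference 5.42, SE 0.15, limma adjusted p = 2.4e-06). On chromosome 12, a pair of overlapping identifiers between 6619411 and 6619677 rose by 4.99 and 4.96 on the log2 scale. The longest of the 10 was chr5:33038349-33223947, at 47.48 and 176.3 without crosslinking against 0.3577 and 2.491 (log2 difference 5.41, SE 0.61, adjusted p = 0.00012). A narrow site at its 5' end, chr5:33223926-33223946, held 23.74 and 58.78 rpm without crosslinking. With gel, all 10 identifiers were higher without crosslinking as well, with log2 differences of 5.45 to 8.31. With 1 read number per run of touching peaks the 10 rises without gel were 3.71 to 4.94 and came in another order.

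The last of these rises, chr6:26056072-26056667, held 216.0 and 108.0 rpm without crosslinking and 5.007 and 4.566 with it (log2 difference 4.73, SE 0.30, limma adjusted p = 1.26e-05). It lies in the interval between 26000000 and 28000000 on chromosome 6, where textbook maps place the largest human histone gene cluster. This interval was chosen after the values were seen. It holds 53 listed identifiers, of which 25 were tested, and 20 of these were higher and 1 lower, beside 23.6% and 44.5% of all tested genes and 59.0% higher among all genes of 300 to 3000 nt. The median log2 difference was 2.23. Of 32 identifiers with an extent below 1500 nt, the 10 that passed the filter were all higher, by 2.24 to 4.73, and also higher in the gel libraries. Their median was 22.4 and 19.2 rpm without crosslinking and 2.46 and 2.45 with it, so most passed the filter through the group where they were high and had to differ. Histone messenger RNAs are short, have no introns and mostly end in a stem-loop in place of a poly(A) tail. Whether these identifiers are histone genes was not checked.

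The 10 largest falls (among 2162 eligible genes) were at identifiers of short and of long extent. ENSG00000199683.1, at chr20:36603600-36603675 on the minus strand, held 92.28 and 216.3 rpm with crosslinking and was listed at 0 in both libraries without it. Its RecJ values were 131.7 and 137.4. No fold is given for a gene listed at 0. With gel it held 6.775 and 3.482 without crosslinking and 329.8 and 685.6 with it. ENSG00000201201.1, at chr16:67355589-67355669 on the minus strand, fell from 331.1 and 310.7 to 22.11 and 49.72, by 3.23 on the log2 scale (SE 0.31, limma adjusted p = 5.22e-05). A longer identifier, chr16:67326819-67360484, lies over it and shares these reads, so its fall of 2.78 on the log2 scale is not a separate measurement. In peak numbers per 1000000 peaks, both were higher without crosslinking, by 1.28 and 2.96 on the log2 scale.

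Most remaining falls were in genes with many crosslinked peaks. Their extents ran from 33873 to 497240 nt, beside a median of 33427.5 nt for the genes listed in all 4 libraries. At chr7:81575877-82073116 on the minus strand, 353 and 357 crosslinked peaks were listed against 42 and 53 without crosslinking. Its rpm fell from 378.2 and 364.9 to 45.85 and 60.16, by 2.80 on the log2 scale (SE 0.15, limma adjusted p = 9.12e-06). At chr10:15820227-15902499, 90 and 103 peaks fell to 12 and 11, and rpm from 143.2 and 154.7 to 19.21 and 21.49. At chr11:124636426-124670298 they fell from 148.2 and 146.9 to 16.67 and 26.09. A pair of overlapping identifiers on chromosome 1, chr1:78444973-78482717 and chr1:78445258-78557464, had log2 differences of -2.78 and -2.74 and overlap over most of the shorter one.

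Both remaining falls were in shorter genes. At chr13:92000179-92006694 on the plus strand, rpm fell from 293.9 and 314.1 to 44.76 and 39.9 (log2 difference -2.82, SE 0.13, limma adjusted p = 6.87e-06), or -1.82 with 1 read number per run of touching peaks, while the number of peaks went from 21 and 20 to 16 and 15. Per 1000000 peaks this is a rise of 1.02 on the log2 scale. At chrX:24091418-24095506 they fell from 204.0 and 223.8 to 28.45 and 34.84, with 16 and 18 peaks against 9 and 9. In peak numbers its log2 difference was 0.52 (adjusted p = 0.106).

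Among the genes with the most listed reads, chr11:65190265-65212965 stood apart from its neighbour. On the plus strand, it held 10251 and 12749 rpm without crosslinking and 1989 and 1896 with it, a log2 difference of 2.56 (SE 0.17, limma adjusted p = 1.52e-05) or 5.92-fold between the means. With gel the difference was 1.09 (SE 0.10, adjusted p = 3.84e-05). The next abundant gene on the same strand, chr11:65266513-65273500, held 6114 and 8785 without crosslinking and 10737 and 12356 with it (log2 difference -0.65, SE 0.23, adjusted p = 0.0312). These lie within 100 kb of each other. The fall of the second did not pass with centred libraries (-0.39, adjusted p = 0.197), without mitochondrial totals (-0.41, 0.197), with 1 read number per run of touching peaks (-0.18, 0.146), with no filter on low values (-0.65, 0.0628) or without the crosslinked replicate 1 or 2 (-0.75, 0.194, and -0.55, 0.378). In peak numbers per 1000000 peaks it was higher without crosslinking, by 0.68 on the log2 scale. With 1 read number per run of touching peaks the rise of the first was 1.66 (adjusted p = 4.07e-08).

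The gene at chrX:73040560-73072550 on the minus strand fell from 11834 and 13030 rpm to 7649 and 6734 (log2 difference -0.79, SE 0.19, limma adjusted p = 0.006). With gel it fell by 0.70 on the log2 scale (SE 0.08, adjusted p = 0.000115). The fall did not pass with centred libraries (-0.53, adjusted p = 0.0567), without mitochondrial totals (-0.55, 0.0593) or without the crosslinked replicate 1 or 2 (-0.86, 0.13, and -0.72, 0.235), and in peak numbers it was higher by 0.92. The short RNA at chr6:52860641-52860748 held 6917 and 7116 without crosslinking and 8991 and 9015 with it. These did not overlap, but the log2 difference of -0.36 (SE 0.17, adjusted p = 0.0962) did not pass the test, and its peak number log2 difference was 1.25 (adjusted p = 0.0157). The fall passed at a p-value limit of 1e-05 (-0.53, adjusted p = 0.0364), without the uncrosslinked replicate 1 or 2 (-0.34, 0.00149, and -0.38, 0.000623), and against the RecJ libraries, which held 14857 and 14056 (-1.04, 0.000843).

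Over all genes, the gel libraries without and with crosslinking (noUV_hnRNPA1 and hnRNPA1_50k_lowRNase) gave a second comparison that shares no library with the first. Joint preparation is not given for the gel libraries either, so preparation and crosslinking cannot be told apart in both comparisons. Of the 2505 genes higher without gel, 2363 could be tested with gel, and 1574 (66.6%) were higher there and 67 lower. Of the 4725 lower genes, 4698 were tested with gel, and 4064 (86.5%) were lower and 17 higher. Over all 10809 genes tested with gel, 19.3% were called higher and 49.2% lower.

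The lists differed more at single sites than at genes. Overlapping peaks on the same strand in both crosslinked libraries were merged into 234895 crosslinked sites. Peaks of both libraries without crosslinking overlapped 59873 of them (25.5%), peaks of 1 library 31706 (13.5%), and no peak 143316 (61.0%). Leaving out the crosslinked replicate 1 or 2, which lets sites of a single library in, gave 14.8% and 15.4%. The 25.5% held 52.2% of the reads at crosslinked sites. By the same measure, 58.6% of the crosslinked sites were found in both RecJ libraries, 58.5% in both crosslinked gel libraries and 22.7% in both gel libraries without crosslinking.

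Sites with more reads were found more often. The share found in both libraries without crosslinking was 9.96% up to 8 reads, 16.2% above 8 and up to 16, 29.8% up to 32, 49.8% up to 64, 67.3% up to 128 and 78.3% up to 256. Above 256 reads it was 74.8% of 560 sites. In the class above 32 and up to 64 reads, 93.9% of sites were found in both RecJ libraries and 88.6% in both crosslinked gel libraries, against 48.4% in both gel libraries without crosslinking. The libraries without crosslinking had fewer listed reads than the crosslinked gel libraries, at 5518303 and 6516131 against 7288712 and 6859961, and the gap was wider outside mitochondria, at 3543724 and 4079128 against 7138364 and 6752803. The part of depth in the loss of sites was not tested.

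**Figure D5:**
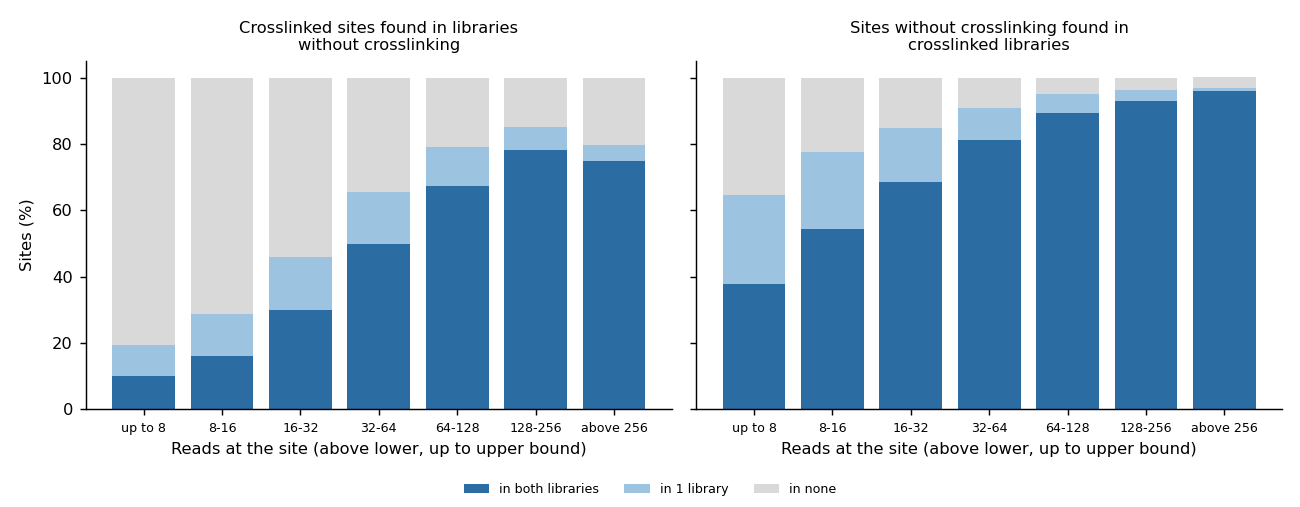
Left, crosslinked sites by their reads and the percent found in both, 1 or none of the libraries without crosslinking; right, sites without crosslinking and the percent found in crosslinked libraries. The share in both rises from 9.96% to 78.3% on the left before the last class, at 74.8%, and from 37.9% to 96.0% on the right.

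In the opposite direction the overlap was larger. Of 105066 sites listed in both libraries without crosslinking, 57.8% were found in both crosslinked libraries and 21.8% in neither. Above 256 reads, 96.0% of 672 sites were found in both. Per library, 65.8% and 68.0% of the peaks without crosslinking overlapped a crosslinked hnRNPA1 peak, and these peaks held 84.0% and 87.5% of the listed reads. For the gel libraries without crosslinking the share of peaks was 70.7% and 72.7%. In the libraries of the other 3 antibodies without crosslinking and without gel, it was 22.0% and 21.5% for hnRNPc, 23.4% and 22.8% for hnRNPI, and 29.9% and 30.7% for RBFOX2. The gap was smaller in listed reads, of which these peaks held 41.3% and 38.1% for hnRNPc, 37.4% and 36.4% for hnRNPI, and 59.7% and 59.1% for RBFOX2. Without crosslinking, peaks and listed reads of the hnRNPA1 antibody thus lay more often at crosslinked hnRNPA1 sites than those of the other antibodies, in every library. Mitochondrial reads are included, at 35.8% and 37.4% of listed reads for hnRNPA1 without gel and 7.78% to 23.4% for the other antibodies. Peaks were not matched for their reads.

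Sites that stayed and sites that were lost also differed in libraries that did not define them. Over all read numbers, crosslinked sites that stayed had a median width of 114 nt and lost ones of 92 nt. The shares below are matched for reads but not for width. Of 13778 sites above 32 and up to 64 reads that stayed in both, 89.7% and 89.3% had a peak in the 2 gel libraries without crosslinking. Of the 9537 lost sites of the same class, 16.8% and 13.6% had one. In the RecJ libraries, the lost sites were found at 91.7% and 94.4%, and in the crosslinked gel libraries at 89.1% and 88.8%. In uncrosslinked libraries of the other antibodies, sites that stayed were found at 6.19% to 22.2% and lost sites at 1.44% to 15.2%. In their crosslinked libraries the shares were 19.2% to 30.5% and 13.2% to 28.9%. There hnRNPc was nearly equal, at 28.8% and 30.5% for sites that stayed and 28.3% and 28.9% for lost sites. The 946 sites of this class that were listed without crosslinking and in neither crosslinked library were found at 76.6% and 75.7% in the gel libraries without crosslinking. They were found at 26.3% and 23.7% in the RecJ libraries. In uncrosslinked libraries of the other antibodies they were found at 23.9% to 50.5%, where RBFOX2 had 48.1% and 50.5%. In crosslinked libraries of the other antibodies they were found at 8.77% to 39.4%, where RBFOX2 had 36.7% and 39.4%. Sites in both hnRNPA1 groups were found at 8.43% to 24.6% in the uncrosslinked and at 16.8% to 28.4% in the crosslinked libraries of the other antibodies. These 8442 sites were found at 96.6% and 96.6% in the gel libraries without crosslinking. In the RecJ libraries they were found at 95.5% and 95.9%, so they recurred more often there than the 946 sites.

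A few strong crosslinked sites had no peak without crosslinking. Of the 113 lost sites above 256 reads, 19 were mitochondrial and 68 lay in 4 genes. Outside mitochondria, 356 of 474 sites of this strength were found in both libraries. The strongest lost nuclear site, chr11:65273166-65273308, lies near the 3' end of the abundant gene at chr11:65266513-65273500. It held 2439 and 2480 reads with crosslinking, 2578 and 2227 in the RecJ libraries, 1421 and 1761 in the crosslinked gel libraries, and had no peak in the 4 hnRNPA1 libraries without crosslinking, with or without gel. In the same gene, the libraries without crosslinking listed peaks of as few as 191 and 276 reads.

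The site chrX:73070177-73070299 held 1410 and 1809 reads with crosslinking and was in no hnRNPA1 library without it, although peaks of as few as 94 and 73 reads were listed in the same gene. At chrX:107968804-107969095, 1105 and 1050 reads with crosslinking met no peak without it, where the gene's smallest listed peaks had 22 and 33 reads. The site in ENSG00000199683.1, chr20:36603605-36603661, held 1032 and 1348 reads with crosslinking and, among the libraries without it, 23 and 10 in those with gel. Inside the gene at chr11:65190265-65212965, which gained reads as a whole, the site chr11:65192589-65192688 held 811 and 627 reads with crosslinking and had no peak without it. With gel, it had 151 and 142 reads without crosslinking.

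Sites of the opposite kind lay in some of the same genes. At chrX:73048907-73049058, in the gene that holds the lost site chrX:73070177-73070299, 765 and 926 reads were listed without crosslinking and none with it, where the smallest listed peaks of the gene had 357 and 382 reads. The gel libraries without crosslinking had 588 and 567 reads there. At chr11:65271734-65271786, 294 and 436 reads were listed without crosslinking and none with it. This is below the smallest crosslinked peaks of that gene, at 618 and 675 reads, so it does not show that crosslinked reads were fewer. At chr1:245027388-245027434, 395 and 369 reads were listed without crosslinking, 883 and 231 with gel, and none in the 6 crosslinked hnRNPA1 libraries. There the crosslinked libraries without gel listed peaks of that gene down to 66 and 67 reads. The gel libraries did not always follow: chrX:107979464-107979543 held 455 and 317 reads without crosslinking and had no peak in the other 8 hnRNPA1 libraries read, with gel or without. At chrX:112065495-112065551, 263 and 227 reads were listed without crosslinking and none with it, while with gel 208 and 202 were listed without crosslinking and 60 and 65 with it.

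The sites with the most reads without crosslinking were shared. The first, chrM:1424-1500 at the 3' part of the small ribosomal RNA stretch, held 99181 and 104213 reads without and 23403 and 25752 with crosslinking, despite fewer listed reads in all. The second, chrM:1673-1741 at the start of the large ribosomal RNA stretch, held 79209 and 89077 against 92674 and 94048. The site of the short RNA on chromosome 6, chr6:52860646-52860709, held 19209 and 23290 against 52483 and 56361.

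For 59962 sites listed in all 4 libraries, reads could be compared in level. Of these, 20538 (34.3%) took a larger and 5793 (9.66%) a smaller share of listed reads without crosslinking (limma adjusted p below 0.05), with a median log2 difference of 0.32. Sites had to have a peak without crosslinking to enter, so the excess of rises over falls is set in part by this choice. With centred libraries, 13413 rose and 10564 fell, which moves the share of rises among calls from 78.0% to 55.9%. Without the crosslinked replicate 1 or 2, 3212 and 3321 sites fell. Of 1786 genes with 10 or more such sites, 1106 had sites called in both directions, 626 had rises alone and 48 falls alone.

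The shared sites with the largest changes included positions already described. Besides the site on chromosome 5 described above, chr20:37062535-37062643 rose from 3.845 and 3.902 to 101.3 and 109.4 rpm, at the position of ENSG00000200354.1. At chr17:7481840-7481925, 30.67 and 33.95 rpm rose to 542.0 and 542.7, a log2 difference of 4.03 (SE 0.16, limma adjusted p = 2.77e-13). At chr4:120221582-120221724 they rose from 3.308 and 3.404 to 84.81 and 64.92. The largest falls were at chr16:67355585-67355671, the position of ENSG00000201201.1, and at chrX:107966912-107967262. The latter fell from 69.03 and 87.09 to 7.43 and 6.292 (log2 difference -3.32, SE 0.21, adjusted p = 1.18e-10). It lies near the lost site at chrX:107968804-107969095. On chromosome 22, chr22:38884706-38884932 fell from 70.46 and 77.96 to 12.14 and 8.134, and on chromosome 5, chr5:179048428-179048591 fell from 43.81 and 51.8 to 7.792 and 5.371.

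Where a site lay in its gene also went with its loss. In genes with an extent of at least 30000 nt, 21.9% to 25.2% of crosslinked sites in each of the first 9 of 10 equal parts from the 5' end were found in both libraries without crosslinking, and 31.9% in the last part. Among sites above 16 and up to 32 reads, the share was 26.6% in the first part and 35.8% in the last. At this read number, sites in genes of up to 300 nt were found in 36.4% of 55 cases, sites in genes of 300 to 3000 nt in 54.4% of 261 cases and sites in genes above 300000 nt in 28.7% of 11419. These shares describe sites within the same libraries and were not tested.

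The listed peaks also moved between chromosomes. All 23 nuclear chromosomes compared had a share of listed peaks without overlap between the groups, 11 higher and 12 lower without crosslinking. Chromosome 9 hardly differed, at 4.08% and 4.15% without crosslinking against 4.16% and 4.15% with it. These are shares of 1 total, so the chromosomes are not independent of each other. Chromosome 19, known for its high gene density, gained most, from 2.46% and 2.37% of peaks to 3.98% and 3.63%, a ratio of 1.57. Chromosomes 22, 16 and 17 followed with ratios of 1.23, 1.20 and 1.17. Chromosome 13 lost most, from 3.06% and 3.13% to 2.44% and 2.51%, a ratio of 0.801, followed by chromosome 4 with 0.829.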

How the data were processed

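Peak lists of 22 libraries were read. Per the file contents, each line deposited by the authors gives a peak's position, strand, p-value and a name, with 1 list per library. The name holds an Ensembl gene identifier and numbers, taken here as an index and a read number from the layout of the CLIPper peak caller. No header states this, and all values in reads rest on it. The submitters' processing notes name hg19, STAR 2.7.3a and UMI-tools 1.0.1, with no further settings. The largest deposited p-value per library of the main comparison was 0.00631 to 0.00745, and the smallest read number was 4. Positions and other columns are as deposited.

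Listed reads were summed per gene and divided by each library's total of listed reads, per 1000000 (rpm). Touching peaks repeat reads, and 3.15% to 3.38% of peaks lie at a position listed for more than 1 overlapping gene. limma 3.58.1 (R 4.3.3, eBayes with trend) was run on log2(value + 1) for genes with a mean of at least 5, and for sites, with Benjamini-Hochberg adjustment at 0.05. No count model was used, since these are not counts of all reads. In simulated data for this comparison of 10618 genes, 99.5% of 200 genes changed 4-fold were called, and 0.154% of unchanged ones. For 59962 sites the values were 97.5% and 0.0134%. The changed genes and sites were drawn from those with a mean of at least 20 rpm. The simulation used a fixed spread and no cutoff for listing a peak. These rates thus do not cover weaker genes and sites or smaller changes. Sites are same-strand peaks that overlap by at least 1 nt, merged across libraries. Overlap shares carry no test.

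The genes and sites given are the 10 largest rises and falls among called genes with a mean of at least 50 and no overlap between groups, the 5 genes with most listed reads in each group, and the 5 strongest lost and uncrosslinked sites, 1 per gene. For both kinds of unshared site, the 5 strongest nuclear ones and the shared sites with the largest changes were added after values were seen. The comparison, lists and tests were chosen with earlier results of these data known. The available table of gene names matched 0 identifiers, so gene lists, cell type markers and the hnRNPA1 gene itself were not analysed here, and no sequence of this build was used. Python 3.11.15 with pandas 2.3.3 made the tables. Alternatives are under the closing section.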

Additional observations from a re-analysis of the deposited data

Results flagged for a closer look

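The change in median peak width without crosslinking went in opposite directions without and with the gel. Without gel the medians were 65 and 64 nt without crosslinking and 62 and 61 nt with it, and with gel 58 and 57 nt against 61 and 60 nt. These changes of 3.0 and -3.0 nt differ by 6.0 nt, and the difference was not tested. Among peaks with p below 1e-05, both settings went the same way, at 73 and 73 against 80 and 78 nt without gel and 65 and 65 against 76 and 75 nt with gel.

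The mitochondrial identifier at chrM:4701-5487 fell without gel, from 430.9 and 500.4 to 393.4 and 285.8 rpm, and rose with gel, from 27.03 and 25.8 to 393.8 and 378.5. The log2 differences of -0.47 and 3.82 differ by -4.29, and this difference was not tested.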

How the results depend on the processing

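The log2 difference in peak number of -1.44 became -1.19 with the strictest peaks (p-value limit 1e-05), and was -1.38 to -1.5 with single libraries left out. The width difference of 3.0 nt turned to -6 at this limit, and was 2.5 to 3.5 with libraries left out. Genes retained moved by less than 1.5 times under every setting run, from 9795 to 14083 (12822 and 12770 without crosslinked replicates, up to 13018 without an uncrosslinked one). Lost genes were 1858 with 1 library enough and 157 with 3 peaks required, and 1192 to 1376 with libraries left out. Gained genes were 1085, 17, and 602 to 853. Retained sites (25.5%) became 39% with 1 library enough, 16.7% with an overlap of 50%, 68.6% among the 10000 strongest, and 14.8% to 34.1% with libraries left out. Leaving out a crosslinked library adds weaker sites to the denominator. Peaks without crosslinking on crosslinked peaks (66.9%) became 64.7% at this limit, 58.9% with an overlap of 50%, 93% among the 10000 strongest, and 56 to 68% with libraries left out. Genes called higher (2505) became 1487 with a minimum mean of 20, where fewer genes were tested, and 1911 to 2608 with libraries left out. Genes called lower (4725) became 2040 in peak numbers, and 3383 to 5104 with libraries left out. Sites called higher (20538) became 12421 at this limit, where fewer sites were tested, 13413 when centred, and 15339 to 20315 with libraries left out. Sites called lower (5793) became 2986, 10564, and 3212 to 8502, with 3212 and 3321 for the crosslinked replicates 1 and 2. With RecJ libraries as the control, 2372 genes were higher and 4723 lower.

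Over 27 genes given by position and their 405 alternative fits, 381 gave the same direction and side of the threshold, 11 no longer passed, 6 newly passed and 7 reversed. All 7 reversals were in peak numbers: 2.96, 1.28, 1.25, 1.02, 0.92, 0.68 and 0.52 on the log2 scale, for the genes given beside these values in the text. The replicate numbers share no stated batch, and across 10618 genes the differences between replicates 1 and 2 of both groups correlated with r = 0.0409. With the replicate block, 2649 genes were higher and 4885 lower, and 21217 sites higher and 6059 lower. Gene lists could not be run, since identifiers were not named. Totals without the mitochondrial chromosome and 1 read number per run of touching peaks were added after seeing the data, and gave 3350 and 3452 genes higher and 3877 and 4034 lower.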
